A study of Mus musculus with 11 samples.

Results

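The genes described here encode the proteins of the mitochondrial ribosome, and they were taken as all protein-coding genes whose mouse symbol is Mrpl or Mrps followed by a number. The rule found 78 genes among the 34745 entries of the table, on 17 chromosomes. Of these, 26 belong to the small subunit, 51 to the large subunit, and 1, *Mrps36*, carries the name but is known as a part of a mitochondrial dehydrogenase complex. RNA was sequenced from GFP+ cells that had been sorted by FACS from dispersed islets of male C57BL/6 x 129SV mice at 8 weeks of age. All mice carried RIP-Cre, which is Cre recombinase under the rat insulin promoter, and a *Rosa26*-GFP reporter that Cre switches on, so that the GFP label marks cells in which the insulin promoter has been active. WT mice (n = 3) were *Raptor*+/+ with both transgenes. Diabetic βRapKOGFP mice (n = 4) were *Raptor*-/- in the Cre-expressing cells and received no insulin. Euglycemic βRapKOGFP mice (n = 4) had the same genotype and carried an insulin implant for the 4 weeks before the cells were taken. Raptor is a subunit of mTORC1, the kinase complex that couples nutrients to protein synthesis and growth. No label says whether a library came from 1 mouse or from several, so the p-values measure the spread between these libraries.

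Mitochondria keep a small genome of their own that encodes core subunits of the respiratory chain and ATP synthase, and a dedicated ribosome inside the organelle translates these mRNAs. The RNA of this ribosome is made in the mitochondrion, but every one of its proteins is encoded in the nucleus, translated in the cytosol and imported. Some of the proteins descend from bacterial ribosomal proteins and others are found only in mitochondrial ribosomes. In β-cells the respiratory chain matters for insulin secretion, because ATP made from glucose closes the potassium channels that set the membrane potential. Nuclear genes for mitochondrial proteins are known to share promoter elements bound by ETS-family factors such as GABP, by NRF1 and by YY1.

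Since many of these genes varied together among the libraries, their promoters were searched for 1 sequence of each of these factor families. RefSeq promoters on GRCm38.p6, each 300 bases long with 250 before and 50 after the transcription start, matched 69 of the 78 genes with 75 promoters. The ETS sequence CCGGAAG was present on either strand in 34.7% of them, against 8.86% of all 32851 promoters and 18.5% of the 10774 promoters of genes that were expressed highly enough to be tested here. The NRF1 sequence GCGCATGC was present in 10.7%, against 2.71% of all and 5.54% of the tested genes' promoters. The YY1 sequence AAGATGGCG was also present in 10.7%, against 1.40% and 3.30%. Any of the 3 sequences was found in 48% of the mitoribosomal promoters, in 12.1% of all promoters and in 25.2% of those of tested genes. The ETS sequence ends with the 3 letters with which the YY1 sequence begins, so a stretch can hold both. A match is a string of letters and not a measured binding site. The promoters below belong to genes whose values are given later, and each holds 1 or more matches, which are in capitals, either as written above or as the reverse complement. The sequences run 5′ to 3′ on the strand of the gene.
*Mrps18a*, chr17:46110754-46111053, plus strand, with an ETS and a YY1 match: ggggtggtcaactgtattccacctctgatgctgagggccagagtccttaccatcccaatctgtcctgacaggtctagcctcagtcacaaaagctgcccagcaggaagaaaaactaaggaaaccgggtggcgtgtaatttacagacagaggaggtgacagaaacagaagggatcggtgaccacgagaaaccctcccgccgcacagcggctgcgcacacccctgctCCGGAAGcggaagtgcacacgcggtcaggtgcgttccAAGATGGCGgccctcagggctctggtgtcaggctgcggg
*Mrps18b*, chr17:35916391-35916690, minus strand, with 1 ETS and 2 NRF1 matches: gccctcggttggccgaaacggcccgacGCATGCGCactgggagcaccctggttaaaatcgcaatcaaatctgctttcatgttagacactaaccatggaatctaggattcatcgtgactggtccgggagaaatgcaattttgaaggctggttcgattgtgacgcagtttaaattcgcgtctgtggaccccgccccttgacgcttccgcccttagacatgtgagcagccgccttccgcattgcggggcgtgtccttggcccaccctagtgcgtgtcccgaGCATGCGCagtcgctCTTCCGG
*Mrps12*, chr7:28741772-28742071, minus strand, with an ETS match: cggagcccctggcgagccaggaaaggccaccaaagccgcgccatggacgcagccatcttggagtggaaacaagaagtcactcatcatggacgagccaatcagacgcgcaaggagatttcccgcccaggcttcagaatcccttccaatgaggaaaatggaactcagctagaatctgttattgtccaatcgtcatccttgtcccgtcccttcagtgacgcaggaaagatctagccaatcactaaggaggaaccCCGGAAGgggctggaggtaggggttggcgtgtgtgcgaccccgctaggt
*Mrpl42*, chr10:95501900-95502199, minus strand, with a YY1 match: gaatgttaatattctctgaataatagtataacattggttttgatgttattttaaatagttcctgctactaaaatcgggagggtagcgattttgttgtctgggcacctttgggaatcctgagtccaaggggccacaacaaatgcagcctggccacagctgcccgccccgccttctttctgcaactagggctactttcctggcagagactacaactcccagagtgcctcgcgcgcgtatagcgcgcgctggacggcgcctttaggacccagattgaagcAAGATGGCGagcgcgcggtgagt
*Mrpl36*, chr13:73330759-73331058, plus strand, with a YY1 match: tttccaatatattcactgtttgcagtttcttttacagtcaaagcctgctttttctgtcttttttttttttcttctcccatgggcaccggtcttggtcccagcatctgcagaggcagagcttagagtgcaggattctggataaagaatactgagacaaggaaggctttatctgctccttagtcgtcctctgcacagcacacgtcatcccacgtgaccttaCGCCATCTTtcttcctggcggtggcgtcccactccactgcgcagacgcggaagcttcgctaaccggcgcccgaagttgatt
The YY1 matches of *Mrpl42* and *Mrps18a* lie just after the transcription start, and that of *Mrpl36* lies just before it.

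The values are FPKM, a fragment count divided by transcript length and by the size of the library, so that levels of different genes can be compared per length. Low values of single-exon genes came in steps that correspond to between 9497447 and 16643554 fragments per library. *Rptor*, the gene of Raptor, was at 1.37 ± 0.422 (SD, n = 3) FPKM in WT and at 0.591 ± 0.193 (SD, n = 8) in the 8 mutant libraries, which all lay below the WT libraries (exact permutation test, two-sided, p = 0.0121). All 7 β-cell markers were detected in every library, and their summed FPKM, carried by *Ins1*, *Ins2* and *Iapp*, was between 116551 and 206152. *Slc2a2*, the glucose transporter among them, was at 69.7, 87.0 and 70.0 FPKM in WT and was called lower in both mutant groups (−2.06 and −1.79 on the log2 scale; limma, adjusted p = 0.00254 and 0.00712), and 5 of the 7 were below 0 in diabetic and 6 in euglycemic against WT libraries. WT replicate 1 stood apart from the other WT libraries in the genes described here: it was the highest of the 3 WT libraries for 73 of the 77 mitoribosomal genes tested, with a median of 1.77 times the mean of WT replicates 2 and 3. The counts and medians of each comparison with WT are therefore given with and without WT replicate 1.

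Mitoribosomal genes were moderately to well expressed in these cells. Their mean FPKM in WT had a median of 11.1, against 4.93 over all 11251 genes tested, which were those that reached 1 FPKM in 3 or more libraries. It lay below 20 in 55 of the 77 genes, between 20 and 50 in 17 and above 50 in 5. *Mrpl42* (ENSMUSG00000062981, chr10:95480805-95501940), a large-subunit protein found only in mitochondria, was the highest with 86.0 ± 45.6 (SD, n = 3) FPKM in WT. *Mrps28*, a small-subunit protein, and *Mrpl36*, a small protein of the large subunit, followed with 71.2 ± 37.5 (SD, n = 3) and 62.6 ± 23.9 (SD, n = 3). The spread between the 3 WT libraries was larger than the distances between these genes. At the other end were *Mrpl15*, *Mrps17* and *Mrps25*, with 1.66 ± 0.561 (SD, n = 3), 1.71 ± 0.722 (SD, n = 3) and 1.98 ± 0.461 (SD, n = 3) FPKM. *Mrps36* stayed under 1 FPKM in every library and was not tested with the others.

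The summed FPKM of all 78 genes was 1835, 1023 and 1063 in WT replicates 1 to 3, 932, 1045, 1230.1 and 1339.8 in diabetic replicates 1 to 4 and 1631, 1673, 1585 and 1400.2 in euglycemic replicates 1 to 4. All 4 euglycemic libraries lay above all 4 diabetic libraries, WT replicate 1 lay above every other library, and WT replicates 2 and 3 lay within the diabetic range. The mean over the WT libraries was 1307 ± 457 (SD, n = 3), that over the diabetic libraries 1137 ± 183 (SD, n = 4), and that over the euglycemic libraries 1572 ± 120.2 (SD, n = 4). As a share of the summed FPKM of all genes, the mitoribosomal genes made up 0.257 to 0.433% in WT, 0.258 to 0.337% in diabetic and 0.329 to 0.408% in euglycemic libraries. The small and the large subunit varied together, and the ratio of their summed FPKM stayed between 0.370 and 0.457 in all 11 libraries. A lower level in RNA of sorted cells can come from fewer cells that express a gene or from less RNA per cell, and these cannot be told apart here.

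**Figure D1:**
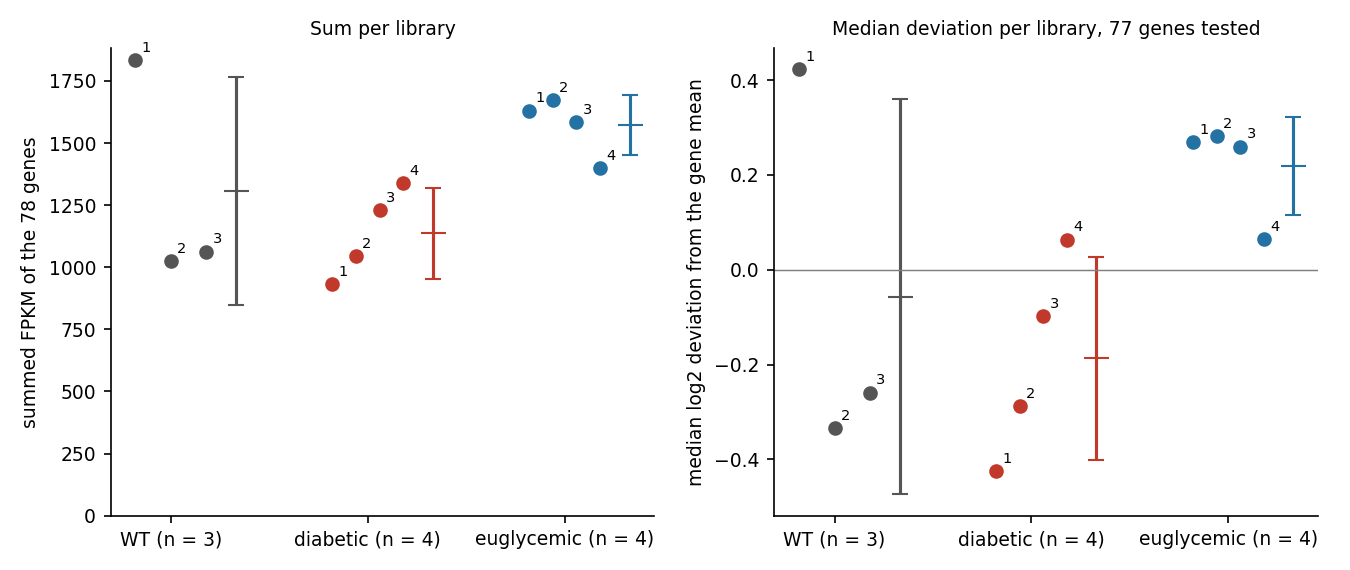
Level of the mitoribosomal genes per library. Left, summed FPKM of the 78 genes (axis from 0); right, median over the 77 genes tested of log2(FPKM + 1) minus the gene's mean over the 11 libraries; points are libraries labelled with their replicate number, and bars to the right of each group are the mean and SD. On the left the 4 euglycemic libraries lie above the 4 diabetic libraries, on the right euglycemic replicate 4 is level with diabetic replicate 4 (both 0.064), and WT replicate 1 lies far above WT replicates 2 and 3.

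Medians over the genes gave a similar order, except that euglycemic replicate 4 was level with diabetic replicate 4. On a log2 scale, with each gene set to its own mean over the 11 libraries, the median deviation of the 77 genes was 0.42, −0.33 and −0.26 in WT, −0.42, −0.29, −0.097 and 0.064 in diabetic and 0.27, 0.28, 0.26 and 0.064 in euglycemic replicates. WT replicate 1 was the highest of all libraries for 37 genes and the lowest for 0, whereas diabetic replicate 1 was the highest for 0 and the lowest for 28. Both subunits and both evolutionary classes took part: the medians in diabetic replicate 1 were −0.44 and −0.43 for the bacterial-type and the mitochondria-specific proteins of the small subunit, and −0.43 and −0.40 for those of the large subunit. Across the 11 libraries, the correlation of a single gene with the median of the other 76 had a median of 0.83 and exceeded 0.8 in 48 genes. These libraries include all 3 groups, and the correlations therefore describe the shared variation, including that of WT replicate 1. *Mrps18a* (r = 0.96), *Mrps10* (r = 0.95), *Mrpl21* (r = 0.95) and *Mrpl42* (r = 0.95) followed the others most closely, and 7 genes had r below 0.4. The first principal component held 57.8% of the variance of the 77 genes over the libraries.

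**Figure D2:**
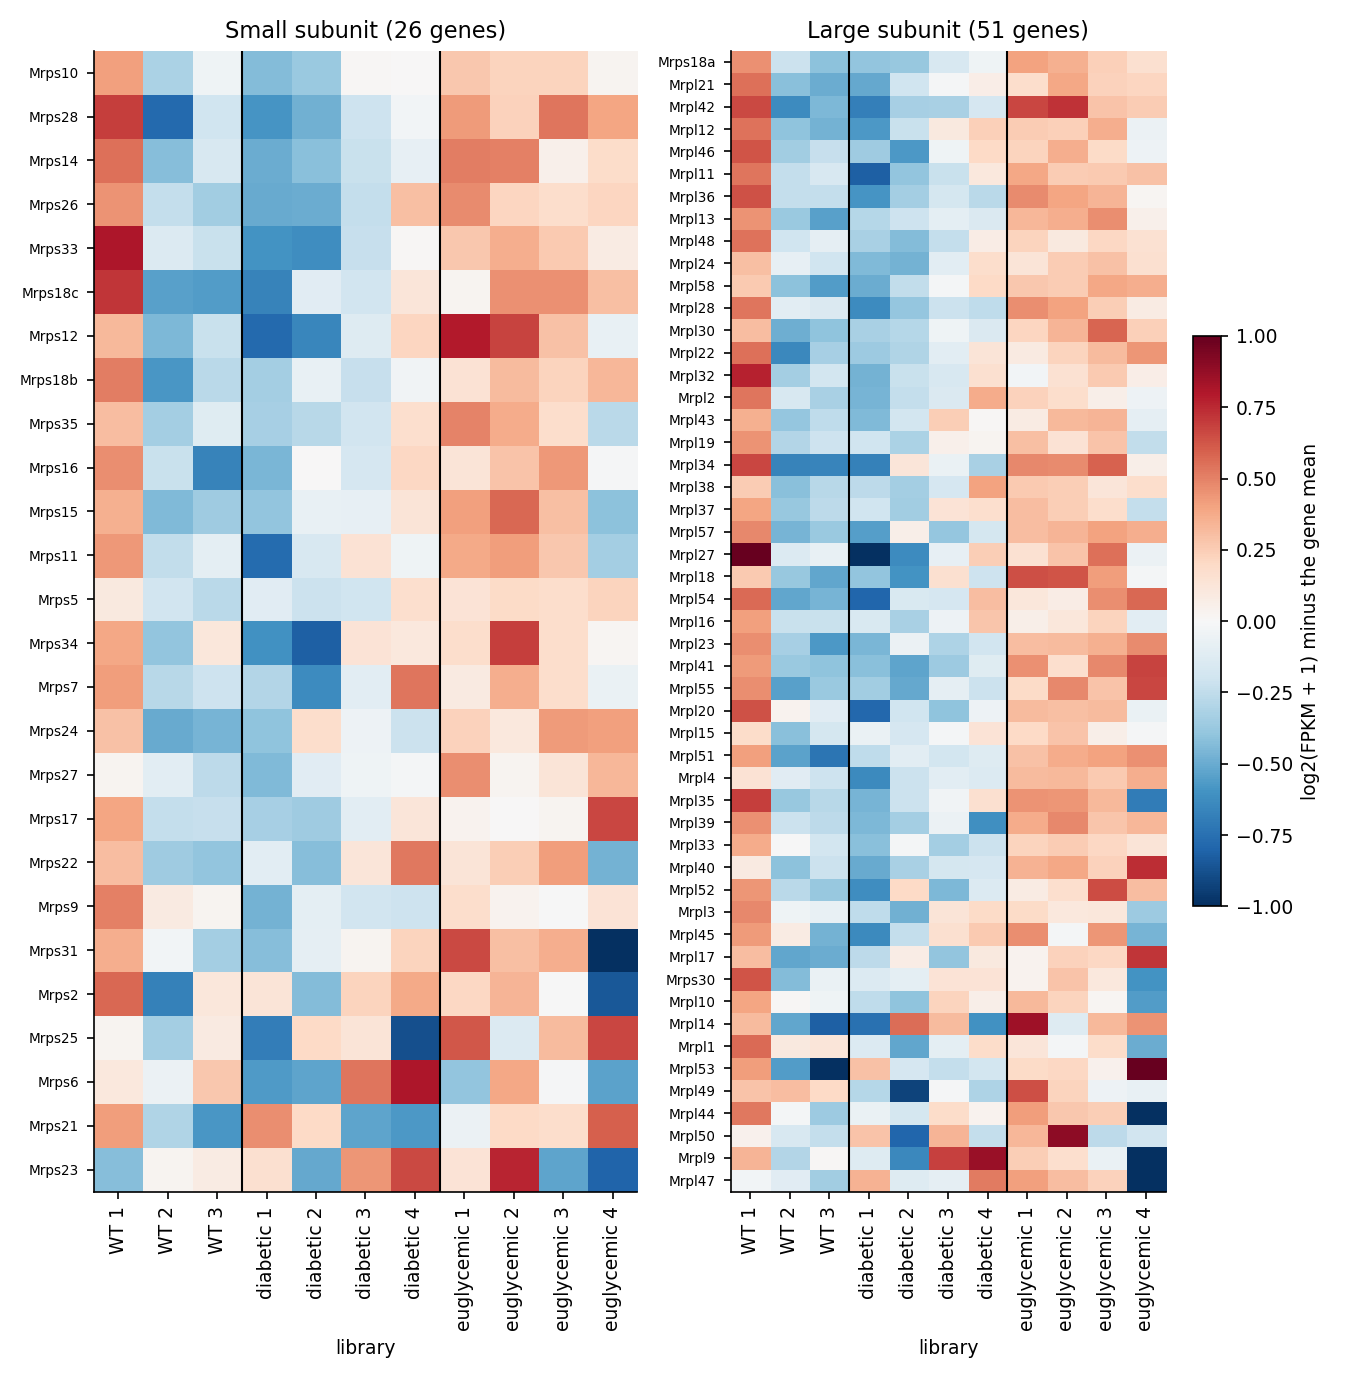
Mitoribosomal genes in each library. Rows are the 26 small-subunit (left) and 51 large-subunit genes tested (right), ordered within each subunit from the highest to the lowest correlation with the other genes; columns are the 11 libraries, with lines between the groups; colour is log2(FPKM + 1) minus the gene's mean, with the scale ending at −1 and 1. Most rows are red in WT replicate 1 and euglycemic replicates 1 to 3 and blue in diabetic replicates 1 and 2, and the genes at the bottom, such as *Mrps23* and *Mrpl47*, do not follow this order.

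The mutant groups, which share the genotype, were compared with each other to ask what differed with the insulin implant. Insulin from the implant and the normal blood glucose that went with it cannot be told apart here. Mitoribosomal genes were lower in diabetic than in euglycemic libraries for 70 of 77 genes, with a median log2 fold change of −0.42 (0.75-fold), where all genes tested had a median of 0.0088. A gene was called where its adjusted p in limma did not exceed 0.05 and its change reached 1.5-fold; none of the 77 was, and the smallest adjusted p was 0.123. Over all genes the same threshold called 0.00889%, which is 1 gene. At an unadjusted p up to 0.05 there were 29 of the 77 genes lower in diabetic libraries and 0 higher, against 10.0% of all genes lower. In 26 of the 77 genes, all 4 diabetic libraries lay below all 4 euglycemic libraries, against 7.42% of all genes, and for 0 genes the order was the other way round. When WT replicate 1, which is in neither group but adds to the shared estimate of the spread, was left out, 8 of the 77 genes passed, all lower in diabetic libraries, against 1.64% of all genes that were called lower. With TPM in addition this count was 0 (1.99% of all genes called in either direction), and with the length and GC trend described below removed it was 3 (1.61%), both alternatives chosen after the data were seen. WT replicate 1 was itself singled out by the values of the mitoribosomal genes, so leaving it out narrows their spread in particular.

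These 8 genes all encode large-subunit proteins, and they are described here although they were chosen after their values were seen. *Mrpl42* was at 53.9, 69.1, 69.3 and 77.7 FPKM in diabetic replicates 1 to 4 and at 139, 145, 106 and 104 in euglycemic replicates 1 to 4. The groups did not overlap, and the log2 fold change, on the log2(FPKM + 1) scale as throughout, was −0.86 ± 0.26 (SE; limma, adjusted p = 0.136) with all libraries and −0.86 ± 0.17 (SE; limma, adjusted p = 0.0415) without WT replicate 1. *Mrpl41* (ENSMUSG00000036850, chr2:24974117-24975098), another protein known only from mitochondria, was at 16.8, 15.5, 17.5 and 20.9 FPKM in diabetic and 31.7, 25.7, 32.2 and 37.2 in euglycemic replicates. Its lowest euglycemic value was above its highest diabetic value, and the change was −0.80 ± 0.21 (SE; limma, adjusted p = 0.123), or −0.80 ± 0.16 (SE; limma, adjusted p = 0.0415) without WT replicate 1. *Mrpl40* (ENSMUSG00000022706, chr16:18872018-18876862) was at 14.7, 16.8, 18.8 and 18.9 FPKM in diabetic and 27.4, 28.1, 25.1 and 36.2 in euglycemic replicates. *Mrpl39* (ENSMUSG00000022889, chr16:84717576-84735742) was at 7.82, 8.49, 10.6 and 6.86 FPKM in diabetic and 14.6, 15.8, 13.5 and 14.2 in euglycemic replicates. Neither gene had overlapping groups, and their changes were −0.72 ± 0.18 (SE; limma, adjusted p = 0.123) and −0.73 ± 0.20 (SE; limma, adjusted p = 0.124). The others of the 8 are counterparts of bacterial proteins: *Mrpl55* with −0.70, *Mrpl28* with −0.67, *Mrpl36* with −0.64 and *Mrpl23* with −0.62 (log2 fold changes with all libraries, adjusted p = 0.145, 0.132, 0.154 and 0.160 in limma). *Mrpl36* was at 38.1, 45.5, 51.1 and 47.7 FPKM in diabetic and 80.3, 76.0, 73.2 and 58.4 in euglycemic replicates, again without overlap.

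Among small-subunit genes, 7 of 26 had diabetic libraries that all lay below the euglycemic ones, and among large-subunit genes 19 of 51, against 7.42% of all genes. The small-subunit gene *Mrps28* (ENSMUSG00000040269, chr3:8802146-8923918) was at 45.8, 49.6, 60.2 and 68.1 FPKM in diabetic and 93.7, 81.9, 101 and 91.5 in euglycemic replicates. The highest diabetic value was below the lowest euglycemic value, and the change was −0.72 ± 0.27 (SE; limma, adjusted p = 0.172). *Mrps12* (ENSMUSG00000045948, chr7:28739641-28741820), which encodes a protein of the decoding centre, was at 9.06, 9.97, 14.8 and 19.0 FPKM in diabetic and 28.8, 26.6, 20.1 and 15.4 in euglycemic replicates, and here diabetic replicate 4 lay above euglycemic replicate 4. Its change was −0.76 ± 0.27 (SE; limma, adjusted p = 0.164). The medians of the log2 fold changes were −0.37 for the small and −0.45 for the large subunit, and the difference between the subunits was not tested.

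**Figure D3:**
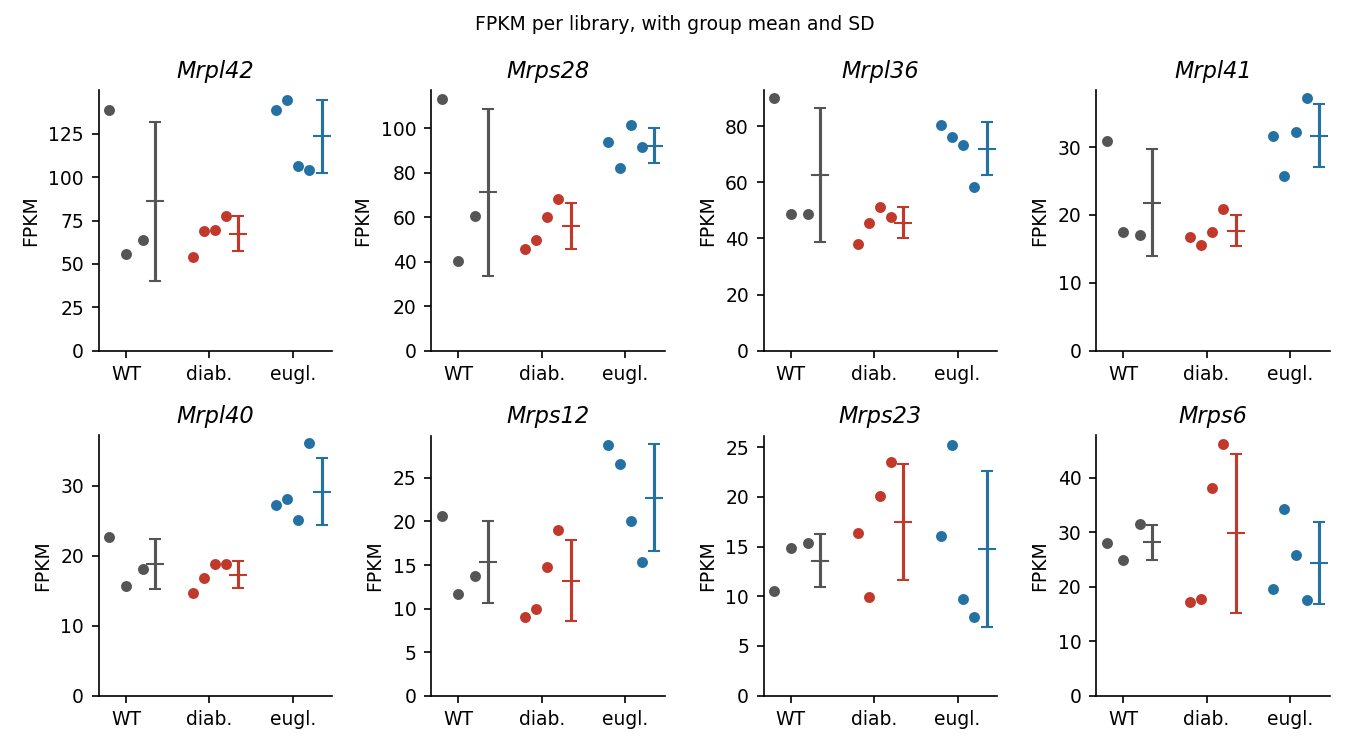
FPKM of 8 mitoribosomal genes in each library (points), with the mean and SD of each group to the right of it and axes from 0; diab. and eugl. are the diabetic and euglycemic mutants. In *Mrpl42*, *Mrps28*, *Mrpl36*, *Mrpl41* and *Mrpl40* the euglycemic libraries lie above all diabetic libraries, in *Mrps12* they overlap, and in *Mrps23* and *Mrps6* both mutant groups reach above and below the range of WT.

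Transcript length moved with these differences. The mitoribosomal genes tested have short transcripts, with a median of 1056 bases against 1963 in the other genes tested, and 54 of the 77 are at most 1500 bases long. The 4156 other genes with transcripts of at most 1500 bases had a median deviation of 0.20, −0.14 and −0.12 in WT, −0.19, −0.19, 0.0019 and −0.0062 in diabetic and 0.22, 0.16, 0.13 and −0.030 in euglycemic replicates. The 1635 other genes over 4000 bases were at −0.26, 0.14 and 0.21 in WT, 0.33, 0.14, 0.17 and −0.00030 in diabetic and −0.10, −0.24, −0.17 and −0.21 in euglycemic replicates. The short genes were thus high and the long genes low in WT replicate 1 and in euglycemic replicates 1 to 3, as the mitoribosomal genes were high. Between diabetic and euglycemic libraries the median log2 fold change was −0.22 for the other short genes and 0.34 for the long genes. It was −0.44 for the 54 short mitoribosomal genes and −0.27 for the 23 longer ones. All diabetic libraries lay below all euglycemic libraries in 21 of the 54 short mitoribosomal genes (38.9%), against 14.7% of the other short genes, and in 5 of the 23 longer ones (21.7%). This share was 0.979% in the other genes over 4000 bases, a length that only 3 of the 77 genes exceed. With the trend of each library on transcript length and GC content removed, an alternative chosen after the data were seen, the median of the mitoribosomal genes was −0.29 and that of all genes −0.0086, and 20 of the 77 genes had diabetic libraries that all lay below the euglycemic ones, against 6.04% of all genes. The library that stands apart in WT kept the highest median deviation on this scale (0.30), with −0.21 and −0.20 in the other WT libraries.

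**Figure D4:**
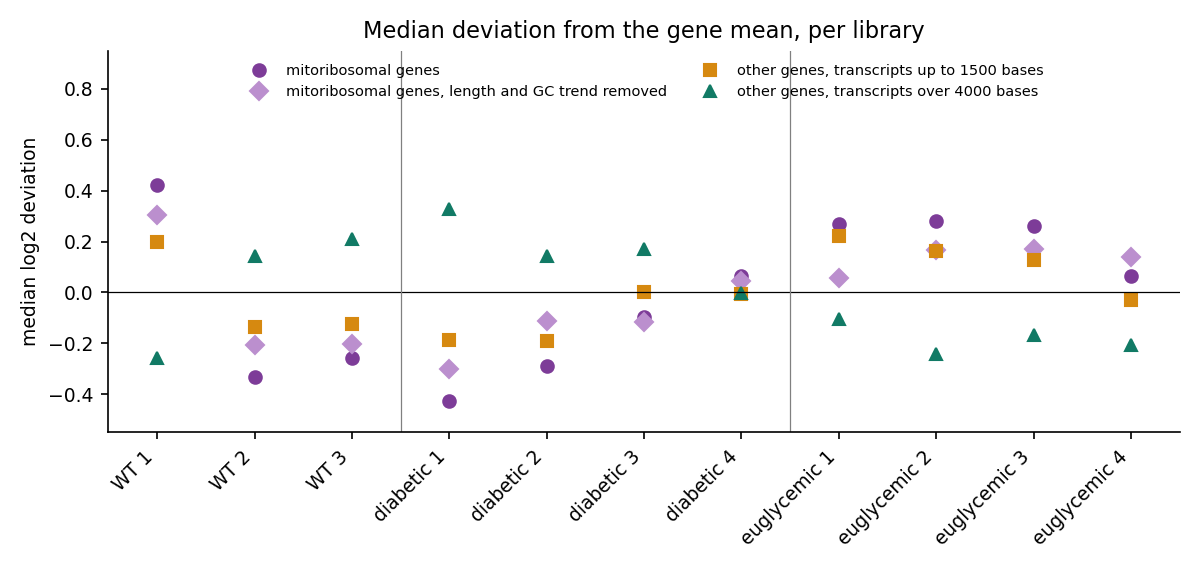
Median log2 deviation from the gene mean in each library (horizontal axis) for the 77 mitoribosomal genes before (circles) and after (diamonds) removal of the trend on transcript length and GC content, for the 4156 other genes with transcripts of at most 1500 bases (squares) and for the 1635 other genes over 4000 bases (triangles). The long genes lie on the other side of 0 from the mitoribosomal genes in all 11 libraries, by very little in diabetic replicate 4, and after removal the mitoribosomal medians are closer to 0 in 9 of the 11 libraries, the exceptions being diabetic replicate 3 and euglycemic replicate 4.

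Markers of other cell types also differed between the mutant groups. The summed FPKM of 5 endothelial markers was 7.02 to 45.3 in diabetic, 0.0436 to 2.07 in euglycemic and 0.0487 to 1.39 in WT libraries, and it was carried by *Plvap*, which alone of the 5 passed the filter on low values, while *Cdh5* was listed at 0 in all 3 WT and in 3 euglycemic libraries. *Plvap* was called higher in diabetic against WT libraries (log2 fold change 3.29) and in no other comparison. The summed FPKM of 3 duct markers was 44.1 to 64.3 in diabetic and 69.2 to 96.6 in euglycemic libraries, nearly all of it *Krt7*, which was at 51.4 to 67.8 FPKM in WT. The other duct markers lay above WT in all mutant libraries: *Krt19* was at 0.505 to 0.853 FPKM in WT and 2.54 to 16.5 in the mutants, with a log2 fold change of 2.29 ± 0.36 (SE; limma, adjusted p = 0.0149) in euglycemic against WT libraries (adjusted p = 0.0815 in diabetic), and *Sox9* at 0.0176 to 0.178 and 0.192 to 1.95. The 7 acinar markers summed to 2.39 to 1826 FPKM in diabetic, 1.32 to 3155 in euglycemic and 1.76 to 29.0 in WT libraries, which all overlapped, and their median log2 fold changes from WT were 4.61 in diabetic and 2.92 in euglycemic libraries, with none called. The 3 stroma markers, none of which passed the filter, summed to 14.1, 5.11, 0.877 and 0.0600 FPKM in diabetic replicates 1 to 4, and to at most 0.146 in euglycemic and 0.496 in WT libraries. The part of these cells in the difference was not tested. In the comparisons with WT, markers of other islet cells differed: the 4 alpha cell markers summed to 745 to 2128 FPKM in WT, 3442 to 14098 in diabetic and 4109 to 22950.1 in euglycemic libraries. The 2 delta cell markers summed to 1150.3 to 2472 FPKM in WT, 4870.2 to 12077 in diabetic and 4775 to 13791 in euglycemic libraries, and *Ppy*, the hormone of PP cells, was at 364 to 909 in WT and at 3007 to 12189.7 in the mutants. *Ppy* was called higher than WT in diabetic and in euglycemic libraries (2.94 and 3.18 on the log2 scale). In euglycemic against WT libraries 1 alpha and 1 delta cell marker were also called higher, and in diabetic against WT libraries 0 of either. Of 5 leukocyte markers, whose sums overlapped between all groups, 3 passed the filter on low values, with a median log2 fold change of 1.53 in diabetic against WT libraries. *Lyz2*, a myeloid lysozyme, was at 59.4, 13.2, 1.20 and 0 FPKM in diabetic replicates 1 to 4, at 0 to 3.07 in euglycemic libraries and at most 0.287 in WT (2.52 in diabetic against WT; adjusted p = 0.364 in limma). *Cd74*, of antigen-presenting cells, was at 29.2, 26.4, 1.91 and 0.241 FPKM in diabetic, 0.629 to 30.0 in euglycemic and 1.13 to 1.84 in WT libraries (1.53; limma, adjusted p = 0.630). *Ptprc* was listed at 0 in all libraries except diabetic replicate 1, and *Cd3e* in all 11. *Cd79a*, a B cell gene, was at 20.1, 8.20 and 9.22 FPKM in WT and at most 1.10 in the mutants, and was called lower in both mutant groups (−3.12 and −3.16 on the log2 scale; limma, adjusted p = 0.000735 and 0.000626). The part of these differences in the mitoribosomal values was not tested either.

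The comparison with WT asks how the same genes differed from WT in *Raptor*-mutant mice with and without diabetes. Both comparisons share the 3 WT libraries. Only the euglycemic mice carried an implant, so in euglycemic against WT libraries the implant and the genotype cannot be told apart. In euglycemic against WT libraries, 65 of the 77 genes were above 0 and the median log2 fold change was 0.27 (1.20-fold), where that of all genes was −0.010. No mitoribosomal gene passed the threshold in limma (smallest adjusted p = 0.202), as against 0.551% of all genes. At an unadjusted p up to 0.05 there were 11 genes higher and 0 lower, against 7.33% of all genes higher. In 3 of the 77 genes all euglycemic libraries lay above all WT libraries, against 5.91% of all genes. One of these was *Mrpl40*, with 22.7, 15.7 and 18.2 FPKM in WT replicates and a change of 0.61 ± 0.19 (SE; limma, adjusted p = 0.202). For 39 of the 77 genes, WT replicate 1 lay above all 4 euglycemic libraries, against 22.1% of all genes, and for 53 all 4 euglycemic libraries lay above both other WT libraries, against 19.2% of all genes. WT replicate 1 was singled out by the values of these same genes, so the 53 genes and the counts without it are no separate support for a rise. Without WT replicate 1 the median was 0.47, with 72 genes above 0. At an unadjusted p up to 0.05 in limma, 38 genes were then higher and 0 lower, against 24.5% of all genes in either direction. Of the 77 genes 12 passed, all higher in euglycemic libraries, against 2.86% of all genes that were called higher. Most of these calls were lost in alternatives chosen after the data were seen: without WT replicate 1, 4 genes passed with TPM (5.19%, against 3.12% of all genes) and 3 with the length and GC trend removed (3.90% against 3.83%).

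**Figure D5:**
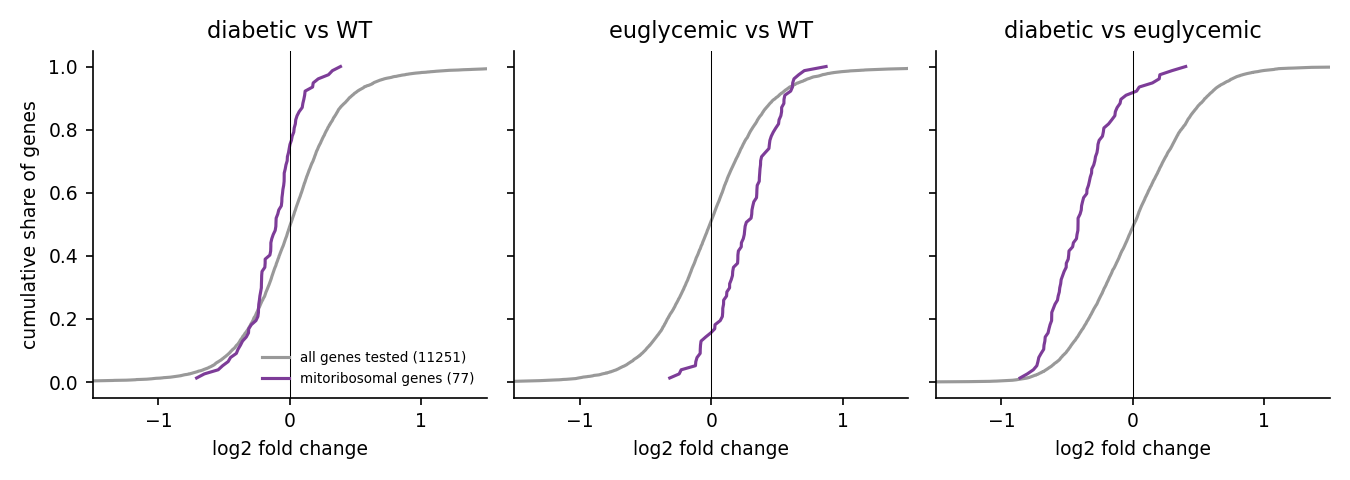
Cumulative share of genes (vertical axis) at or below each log2 fold change (horizontal axis) for the 77 mitoribosomal genes (purple) and all 11251 genes tested (grey), with all libraries, in diabetic against WT, euglycemic against WT and diabetic against euglycemic. The mitoribosomal genes lie to the right of all genes in the second panel (median 0.27) and to the left in the third (median −0.42), and their median in the first is −0.10.

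The largest of these 12 were *Mrpl53*, *Mrpl34*, *Mrpl42* and *Mrpl51*, all of the large subunit. *Mrpl51* (ENSMUSG00000030335, chr6:125191801-125196269) was at 14.3, 6.94 and 5.92 FPKM in WT, 8.66, 9.70, 9.11 and 9.52 in diabetic and 13.1, 13.9, 14.2 and 14.8 in euglycemic replicates. WT replicate 1 was within the euglycemic range and the other WT libraries lay below all mutants, and the euglycemic change was 0.67 ± 0.24 (SE; limma, adjusted p = 0.247) with all libraries and 1.02 ± 0.16 (SE; limma, adjusted p = 0.0128) without WT replicate 1. *Mrpl42* was at 139, 56.0 and 63.6 FPKM in WT, where WT replicate 1 was within the euglycemic range, and its log2 fold change was 0.62 ± 0.29 (SE; limma, adjusted p = 0.355) and 1.02 ± 0.21 (SE; limma, adjusted p = 0.0278). *Mrpl34*, which had 53.9, 20.7 and 20.8 FPKM in WT and 47.1, 47.0, 50.9 and 34.9 in euglycemic replicates, had a log2 fold change of 1.06 ± 0.24 (SE; limma, adjusted p = 0.0344) without WT replicate 1 and of 0.62 with it (adjusted p = 0.402). *Mrpl53* had the highest log2 fold change with every library in the fit, 0.87 ± 0.36 (SE; limma, adjusted p = 0.306), but 88.0% of its exon bases are shared with an overlapping gene model on the same strand (Gm42688), so that its reads cannot be assigned to it with certainty. The rest of the 12 were the small-subunit genes *Mrps28* and *Mrps24* and the large-subunit genes *Mrpl13*, *Mrpl23*, *Mrpl30*, *Mrpl41*, *Mrpl55* and *Mrpl57*, with log2 fold changes of 0.88, 0.78, 0.76, 0.82, 0.79, 0.83, 0.86 and 0.77 without WT replicate 1.

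The other log2 fold changes among the 5 highest in euglycemic libraries were those of *Mrpl14* with 0.71 ± 0.36 (SE; limma, adjusted p = 0.406) and *Mrpl18* with 0.63 ± 0.25 (SE; limma, adjusted p = 0.296). *Mrpl14* was at 18.4, 8.86, 12.5 and 13.7 FPKM in euglycemic and 5.42, 14.9, 12.4 and 6.11 in diabetic replicates, and the spread within both groups was wide. The 5 lowest were −0.32 for *Mrpl1*, −0.24 for *Mrps6*, −0.23 for *Mrpl9*, −0.12 for *Mrps9* and −0.12 for *Mrpl10*, with adjusted p of 0.550, 0.774, 0.824, 0.798 and 0.852 in limma. Without WT replicate 1 they were −0.16, −0.24, −0.069, 0.030 and 0.018, so that *Mrps9* and *Mrpl10* changed sign. *Mrpl10*, the protein that holds the stalk of the large subunit, had 42.7, 32.6 and 31.4 FPKM in WT and 40.8, 38.0, 32.7 and 21.7 in euglycemic replicates, which overlapped.

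In diabetic against WT libraries, 57 of the 77 genes were below 0, but the median log2 fold change was only −0.10, and 0.0063 over all genes. Again none passed the threshold in limma (smallest adjusted p = 0.285), against 0.969% of all genes. At an unadjusted p up to 0.05 there were 4 genes lower and 0 higher, against 5.74% of all genes lower, and in 3 genes all diabetic libraries lay below all WT libraries, against 6.88% of all genes. Without WT replicate 1 the median turned to 0.14, with 54 genes above 0, 0 genes called against 0.320% of all genes, and 2 genes higher and 1 lower at an unadjusted p up to 0.05 in limma, against 10.6% of all genes in either direction. The direction of this comparison thus rests on WT replicate 1.

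*Mrpl49* (ENSMUSG00000007338, chr19:6053622-6057785), a mitochondria-specific protein of the large subunit, is a gene whose WT libraries did not differ in this way. It was at 22.0, 22.3 and 20.6 FPKM in WT and 14.5, 8.91, 17.6 and 14.2 in diabetic replicates, without overlap, and at 28.4, 21.0, 17.1 and 16.9 in euglycemic replicates. Its change in diabetic libraries was −0.65 ± 0.24 (SE; limma, adjusted p = 0.285), and −0.64 ± 0.27 (SE; limma, adjusted p = 0.425) without WT replicate 1. *Mrpl28* was at 63.4, 40.3 and 39.2 FPKM in WT, 27.7, 32.9, 37.2 and 36.3 in diabetic and 60.3, 57.6, 51.5 and 46.0 in euglycemic replicates. Diabetic libraries lay below both other groups, and the change from WT was −0.47 ± 0.21 (SE; limma, adjusted p = 0.404), and −0.25 without WT replicate 1. *Mrps9*, at 4.24, 2.91 and 2.76 FPKM in WT and 1.66, 2.44, 2.22 and 2.19 in diabetic replicates, was the other of the 3 genes without overlap, with −0.45 ± 0.18 (SE; limma, adjusted p = 0.353), and −0.30 without WT replicate 1.

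Also among the 5 lowest log2 fold changes in diabetic libraries were those of *Mrpl27*, a protein near the site where peptide bonds are formed, of *Mrpl20* and of *Mrps33*, and in these genes too none passed. *Mrpl27* had 32.3, 13.7 and 14.4 FPKM in WT and 5.70, 9.49, 14.3 and 18.3 in diabetic replicates, and its change of −0.71 ± 0.36 (SE; limma, adjusted p = 0.468) became −0.33 without WT replicate 1. *Mrpl20* had −0.54 ± 0.23 (SE; limma, adjusted p = 0.385), or −0.32 without WT replicate 1, and *Mrps33* had −0.51 ± 0.26 (SE; limma, adjusted p = 0.462), or −0.18. The 5 highest were those of *Mrpl53* with 0.39, *Mrpl47* with 0.33, *Mrps23* with 0.30, *Mrpl14* with 0.22 and *Mrps22* with 0.18, and their adjusted p in limma were 0.739, 0.765, 0.820, 0.872 and 0.864. Without WT replicate 1 these log2 fold changes were 0.83, 0.39, 0.14, 0.55 and 0.41. With both mutant groups together against WT, 50 genes were above 0, the median was 0.091, and 0 of the 77 genes passed, against 1.05% of all genes. At an unadjusted p up to 0.05 in limma there were 0, against 11.3% of all genes. For 0 genes did the 3 WT libraries all lie on one side of the 8 mutant libraries. Of the other genes with transcripts of at most 1500 bases, 2.19% had all mutants higher and 1.68% all mutants lower. The sign of this median depended on single WT libraries: without WT replicate 2 it was −0.034, with 31 genes above 0, and without WT replicate 3 it was −0.020, with 36 above. Without WT replicate 1 it was 0.28, with 70 genes above 0. At an unadjusted p up to 0.05 in limma, 23 genes were then higher and 0 lower, against 16.0% of all genes in either direction. *Mrpl51* passed with 0.74 ± 0.15 (SE; limma, adjusted p = 0.0396), 1 of the 77 genes, which is about the share of all genes called (1.28%).

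Some genes did not follow the rest. *Mrps23* (ENSMUSG00000023723, chr11:88204388-88211507), a mitochondria-specific protein of the small subunit, had a correlation of −0.059 with the median of the other genes over the 11 libraries. It was at 10.6, 14.8 and 15.4 FPKM in WT, 16.4, 9.91, 20.1 and 23.5 in diabetic and 16.0, 25.3, 9.75 and 7.89 in euglycemic replicates. WT replicate 1 was its lowest WT library, and the mutant groups overlapped. *Mrps6* (r = 0.24) was at 28.0, 24.9 and 31.5 FPKM in WT, 17.2, 17.8, 38.1 and 46.2 in diabetic and 19.6, 34.3, 25.7 and 17.6 in euglycemic replicates, with diabetic replicates 3 and 4 well above replicates 1 and 2. *Mrpl9* (r = 0.28) and *Mrpl47* (r = 0.16) were lowest in euglycemic replicate 4, with 2.28 and 0.872 FPKM. *Mrps25* (r = 0.35) overlaps *Nr2c2* on the opposite strand over 69.8% of its exon bases, and its values may hold reads of that gene.

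The bacterial ribosomal protein S18 has 3 counterparts in mammalian mitochondria, which take different places in the ribosome. *Mrps18c* and *Mrps18b* belong to the small subunit and *Mrps18a*, in spite of its name, to the large subunit. *Mrps18a* (ENSMUSG00000023967, chr17:46110986-46128910) was at 12.4, 7.36 and 6.30 FPKM in WT, 6.39, 6.46, 7.68 and 8.46 in diabetic and 11.8, 11.4, 10.5 and 9.84 in euglycemic replicates. *Mrps18b* was at 9.55, 3.92 and 5.13 FPKM in WT, 4.83, 6.01, 5.28 and 6.19 in diabetic and 7.14, 8.20, 7.62 and 8.28 in euglycemic replicates. *Mrps18c* was at 22.8, 8.97 and 8.85 FPKM in WT, 8.13, 12.5, 11.7 and 14.8 in diabetic and 13.8, 18.9, 19.0 and 16.9 in euglycemic replicates. In *Mrps18a* and *Mrps18b* all diabetic libraries lay below the euglycemic ones, and in *Mrps18c* diabetic replicate 4 overlapped with euglycemic replicate 1. The log2 fold changes between diabetic and euglycemic libraries were −0.53 ± 0.20 (SE; limma, adjusted p = 0.176) for *Mrps18a*, −0.42 ± 0.22 (SE; limma, adjusted p = 0.282) for *Mrps18b* and −0.52 ± 0.28 (SE; limma, adjusted p = 0.297) for *Mrps18c*. *Mrps18b* overlaps an antisense gene over 30.5% of its exon bases and *Mrps18c* a same-strand model over 23.2%.

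Other genes named for their place in the ribosome were *Mrpl12*, *Mrpl45*, *Mrpl58* and *Mrps30*. *Mrpl12*, the stalk protein that contacts translation factors, was at 34.5, 17.5 and 16.5 FPKM in WT, 15.4, 19.9, 25.1 and 27.7 in diabetic and 28.0, 27.7, 30.3 and 22.4 in euglycemic replicates, and the mutant groups overlapped (log2 fold change −0.31 ± 0.25 SE, limma adjusted p = 0.485). *Mrpl45*, which sits near the exit tunnel where the ribosome meets the inner membrane, had FPKM values of 8.93, 6.84 and 4.35 in WT, 3.76, 5.29, 7.27 and 7.88 in diabetic and 9.22, 6.30, 9.09 and 4.37 in euglycemic replicates (log2 fold change −0.22 ± 0.28 SE, limma adjusted p = 0.675). *Mrpl58*, which can release peptides from stalled ribosomes, was at 2.77, 3.47, 4.22 and 5.10 FPKM in diabetic and 5.40, 5.31, 5.95 and 5.82 in euglycemic replicates, without overlap (log2 fold change −0.46 ± 0.21 SE, limma adjusted p = 0.243). *Mrps30*, a large-subunit protein in spite of its name, was at 56.0, 26.2 and 34.1 FPKM in WT, 32.4, 33.3, 39.4 and 39.5 in diabetic and 36.7, 43.9, 38.7 and 23.4 in euglycemic replicates, with mutant groups that overlapped widely (log2 fold change 0.049 ± 0.25 SE, limma adjusted p = 0.932). *Mrps36*, the dehydrogenase subunit, was at 0.607, 0.319 and 0.588 FPKM in WT, 0.458, 0.659, 0.384 and 0.397 in diabetic and 0.729, 0.511, 0.833 and 0.678 in euglycemic replicates. In an exact permutation test, two-sided, diabetic and euglycemic libraries gave p = 0.0571, and p = 0.229 when adjusted over its 4 comparisons, with values that overlapped.

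Between diabetic and euglycemic libraries, the other gene lists of mitochondrial protein synthesis had medians between −0.27 and −0.021. The median was 0.0088 over all genes tested and −0.22 over the other genes with transcripts of at most 1500 bases. Differences between lists were not tested. Of 5 further mitoribosomal proteins with other names, 4 were below 0 between diabetic and euglycemic libraries (median −0.27), and none was called. The largest changes in all mutants against WT were those of *Chchd1*, with 0.29 ± 0.29, and *Gadd45gip1*, with −0.14 ± 0.19 (log2 fold change ± SE; limma, adjusted p = 0.810 and 0.875). Both rest in part on WT replicate 1: *Chchd1* was at 80.8, 36.0 and 33.9 FPKM and *Gadd45gip1* at 49.9, 33.9 and 33.1 in WT replicates 1 to 3. Of 22 genes for assembly and rRNA modification, 15 were below 0 between diabetic and euglycemic libraries, with a median of −0.12 and 0 calls in any of the 4 comparisons. Their largest changes in all mutants against WT were in *Rbfa*, a factor for maturation of the small subunit (−0.45 ± 0.26, adjusted p = 0.576 in limma), and *Mpv17l2* (−0.44 ± 0.24, adjusted p = 0.560). The 16 translation factors had a median of −0.16 between diabetic and euglycemic libraries and 0 calls, with the largest changes in all mutants in *Taco1* (−0.38) and *Guf1* (−0.37). For the 14 mitochondrial tRNA synthetases tested the median was −0.021, with 0 calls and with −0.55 for *Aars2*, which was listed at 0 in euglycemic replicate 4, and −0.46 for *Lars2* in all mutants. The 6 genes of mitochondrial DNA transcription had a median of −0.21 and 0 calls, with 0.27 for *Mterf1b* and 0.24 for *Tfb2m* in all mutants.

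The mRNAs that the mitochondrial ribosome translates are those of mitochondrial DNA. All 13 protein-coding genes of mitochondrial DNA were below 0 in diabetic against WT libraries, with a median log2 fold change of −0.82 (−0.58 without WT replicate 1), and in 11 of them all diabetic libraries lay below all WT libraries, against 6.88% of all genes. One passed the threshold: *mt-Nd2*, a subunit of complex I, with 387, 367 and 272 FPKM in WT, 130.4, 198, 174 and 192 in diabetic and 257, 283, 290.0 and 309 in euglycemic replicates fell by 0.98 on the log2 scale in diabetic libraries (limma, adjusted p = 0.0449). The call was lost without WT replicate 1, where the log2 fold change was −0.88 ± 0.22 (SE; limma, adjusted p = 0.131). In euglycemic against WT libraries all 13 were also below 0, with a median of −0.24 (−0.13 without WT replicate 1) and 0 calls, where the mitoribosomal genes had a median of 0.27. The largest changes in all mutants were in *mt-Co1* (log2 fold change −0.73 ± 0.26 SE, limma adjusted p = 0.275) and *mt-Co3* (log2 fold change −0.71 ± 0.24 SE, limma adjusted p = 0.238), both of complex IV. Between diabetic and euglycemic libraries, 12 of the 13 were below 0, with a median of −0.58, 0 calls and 4 genes whose diabetic libraries all lay lower, against 7.42% of all genes. These 13 genes are transcribed from one small genome and are not independent of each other.

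Of 9 genes for factors known to act on nuclear genes of mitochondrial proteins, 1 was called. *Ppargc1a*, which encodes the coactivator PGC-1α, was at 1.20, 0.210 and 0.570 FPKM in WT, 4.64, 4.30, 4.97 and 3.32 in diabetic and 1.14, 2.16, 3.42 and 3.28 in euglycemic replicates. All diabetic libraries lay above all WT libraries, while euglycemic replicate 1 overlapped with WT replicate 1, and the log2 fold change was 1.71 ± 0.28 (SE; limma, adjusted p = 0.0140) in diabetic and 1.06 ± 0.28 (SE; limma, adjusted p = 0.137) in euglycemic libraries. Without WT replicate 1 both changes passed, with 1.93 ± 0.29 (SE; limma, adjusted p = 0.0223) and 1.29 ± 0.29 (SE; limma, adjusted p = 0.0358). It also passed with both mutant groups together (log2 fold change 1.39 ± 0.25 SE, limma adjusted p = 0.0186). The other of the 2 largest changes was in *Myc*, a transcription factor of growth (log2 fold change 0.65 ± 0.25 SE, limma adjusted p = 0.319). *Nrf1*, *Gabpa* and *Yy1*, whose factors bind the promoter sequences described above, had log2 fold changes of −0.13, 0.039 and 0.13 between diabetic and euglycemic libraries, of −0.32, 0.36 and 0.032 in diabetic against WT libraries and of −0.19, 0.32 and −0.095 in euglycemic against WT libraries, and none was called in any comparison. For *Nrf1* all diabetic libraries (0.861 to 1.14 FPKM) lay below all WT libraries (1.22 to 1.75 FPKM).

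Of the 78 genes, 33 share exon bases with another gene model and 10 share more than 20%, among them *Mrpl53*, *Mrps25*, *Mrps18b*, *Mrps18c* and *Mrpl47* of the genes named above. In 11 genes more than 20% of the 50-base stretches of their transcripts also occur in another gene. The libraries did not keep strand, so the values of these genes may include reads of their neighbours or copies.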

How the data were processed

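The authors deposited 1 FPKM value per gene and library for 11 libraries. The study's methods name poly-A selection, a kit that does not mark strand, Tophat and Cufflinks on mm10, whereas the submitters' processing notes list HISAT2 2.0.4 and StringTie 1.3.0, and which made the table is not settled. Symbols were matched for 34267 of the 34745 gene IDs, and of entries sharing a symbol the highest was kept (17 left out). Coordinates are from GENCODE vM21 on GRCm38 and promoters from RefSeq. log2(FPKM + 1) was fitted with limma 3.58.1 in R 4.3.3 (eBayes with a trend) over the 11251 genes that reached 1 FPKM in 3 or more libraries, all libraries in 1 fit, with Benjamini-Hochberg adjustment over these genes. Calls needed an adjusted p no larger than 0.05 and a 1.5-fold change, as in the study. The fit was tested on simulated data. *Mrps36* was tested by exact permutation (scipy 1.17.1). Fragments per library were read from single-exon genes, whose low values were whole multiples of 1 step in 92.7 to 97.3% (tolerance 0.02). Named genes are those called, the 5 highest and 5 lowest log2 fold changes against WT in each mutant group, the 3 highest and lowest levels in WT, 9 chosen for their place in the ribosome or name, and in other lists those called and the 2 largest changes in all mutants. Other named genes were chosen after their values were seen. The members and lists were chosen with earlier results of these data known. Alternatives were the pseudocount, the filter, rescaling (TPM, median of ratios), fitting the compared groups alone, dropping the trend, weighting libraries, the replicate number as a block, no fold criterion and leaving out each library.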

Additional observations from a re-analysis of the deposited data

Results flagged for a closer look

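In groups of 4, a library was marked where its gap to the next took up most of the group's range (Dixon's criterion), which chance gives in about 1 in 20 groups. Of 86 groups looked at, 4 were marked. Euglycemic replicate 4 was marked in 3 of them: *Mrpl20* was at 13.4 FPKM there and at 17.6 to 17.8 in the other euglycemic libraries, *Mrpl53* at 14.3 against 5.78 to 6.61, and *Mrps17* at 3.28 against 1.69 to 1.76. *Mrpl53* was also marked in diabetic replicate 1, with 7.08 FPKM against 4.58 to 4.88 in the other diabetic libraries. Euglycemic replicate 4 had the fewest fragments, 9497447. No difference between the diabetic and the euglycemic change of a named gene passed the threshold in limma with all libraries in the fit, where the smallest adjusted p was 0.123.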

How the results depend on the processing

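Medians of the 77 log2 fold changes kept their direction under every alternative between diabetic and euglycemic libraries (−0.47 to −0.29) and between euglycemic libraries and WT. In diabetic against WT libraries the median was between −0.25 and 0.14 when each library was left out in turn, 0.090 with library weights and 0.19 with TPM and no WT replicate 1. For euglycemic against WT it was between 0.13 and 0.47 with each library left out, and 0.55 without both WT replicate 1 and euglycemic replicate 4. For all mutants against WT it was between −0.034 (without WT replicate 2) and 0.28 with each library left out. In euglycemic against WT libraries the number of genes called, 0 with all libraries, was 29 with library weights (37.7%, against 20.3% of all genes), 0 to 12 with each library left out (12 without WT replicate 1, 15.6% against 4.76%), 23 without both WT replicate 1 and euglycemic replicate 4 (29.9% against 10.6%), 4 with TPM and no WT replicate 1 (5.19% against 3.12%), and 3 with the length and GC trend removed and no WT replicate 1 (3.90% against 3.83%). In diabetic against euglycemic libraries it was 16 (20.8% against 10.8%), 0 to 8 (8 without WT replicate 1, 10.4% against 3.36%), 15 (19.5% against 8.42%), 0 (against 1.99%) and 3 (3.90% against 1.61%) under the same alternatives. For all mutants against WT it was 4 with library weights (5.19% against 9.92%), 0 to 1 with each library left out and 2 without both libraries (2.60% against 3.26%). The alternatives that join 2 changes and the trend removal were chosen after seeing the data, and WT replicate 1 was singled out by the values of the mitoribosomal genes themselves. Library weights give a library less weight where it departs from its group. The cause of these differences was not tested.

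With the replicate number as a block, 0 genes were called and the medians were −0.13, 0.27, 0.082 and −0.42 in diabetic, euglycemic and all mutants against WT and in diabetic against euglycemic libraries. Same-numbered libraries deviated together no more than others (mean r = −0.13 over 10 pairs with a range of −0.37 to 0.21, and 0.043 over 30 other pairs). No label says whether they share more than a number, and so few pairs cannot settle it.

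For 38 log2 fold changes, each of 1 named mitoribosomal gene in the comparison that named it, there were 947 values under alternatives, of which 863 kept their direction and side of the threshold, 72 came to pass and 12 changed sign. In diabetic against WT libraries *Mrpl53* was between −0.0041 (without WT replicate 3) and 0.83 with each library left out, and *Mrpl14* between −0.021 (without WT replicate 3) and 0.55, being just below 0 without diabetic replicate 2 as well. In euglycemic against WT libraries *Mrpl9* was at 0.22 with library weights, 0.26 without both libraries and −0.38 to 0.098 (without euglycemic replicate 4) with each library left out. *Mrps9* was at 0.013 without both and −0.21 to 0.030 (without WT replicate 1) with each left out. *Mrpl10* was at 0.15 with weights, 0.20 without both and −0.23 to 0.069 (without euglycemic replicate 4) with each left out, and at 0.018 without WT replicate 1.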
